A study of Arabidopsis thaliana with 4 samples.

Results

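The group VII ethylene response factors (ERF-VII) are a small family of transcription factors of Arabidopsis thaliana with 5 members, RAP2.12 (AT1G53910), RAP2.2 (AT3G14230), RAP2.3 (AT3G16770, also called EBP), HRE1 (AT1G72360) and HRE2 (AT2G47520). They were taken by locus, and all 5 had a probe set among the 27826 measured. Each probe set was named by its locus, so each gene gave 1 value per array. Arrays came from whole rosettes of 4-week-old plants. The wild type was the ecotype Columbia-0, and the other group was Columbia-0 labelled as carrying 35S:∆13RAP2.12, with 2 arrays per group. The latter are called the transgene-labelled arrays below. The 35S promoter comes from a plant virus and drives expression in nearly all tissues, and ∆13RAP2.12 names a form of RAP2.12 shortened at its amino terminus. How many independent transgenic lines were used is not stated in these sources. Both groups grew in soil with 12 h of light and 12 h of darkness, at 22 °C by day and 18 °C by night, and were harvested 10 h after the light came on. No low-oxygen treatment is named for either group.

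ERF-VII proteins carry an AP2 DNA-binding domain and a conserved amino terminus that begins with methionine and cysteine. In air the methionine is removed, the exposed cysteine is oxidised by plant cysteine oxidases, an arginine is added, and the ubiquitin ligase PRT6 marks the protein for breakdown. When oxygen falls this chain of steps slows, the factors accumulate in the nucleus, and they switch on genes of fermentation and sugar breakdown. A form without its amino terminus escapes this control. RAP2.12, RAP2.2 and RAP2.3 are transcribed in air, whereas HRE1 and HRE2 are known as members whose transcripts are themselves induced by low oxygen. The comparison asks which members differ in transcript level in rosettes labelled as carrying the shortened RAP2.12. Array values read RNA and not protein. Because whole rosettes were used, a change in RNA per cell and a change in the share of cells that make it cannot be told apart.

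HRE2 was the 1 member that passed the test, with an increase of 3.87 on the log2 scale, and the other 4 did not pass. Values are RMA expression values in log2 units, and the threshold for a call was a limma p of 0.05 after Benjamini-Hochberg adjustment over all probe sets. Of all probe sets, 2.17% were called, 1.74% as higher and 0.424% as lower in the transgene-labelled arrays. At an unadjusted limma p below 0.05 there were 2 members, HRE2 and RAP2.3, beside 4517 of all 27826 probe sets. Among the 5 members the median difference was 0.12, beside a median of -0.04 over all probe sets. With 2 arrays against 2, an exact permutation test of a single gene cannot give a two-sided p below 0.333, so all calls rest on the fit that shares variance across probe sets. The labels do not say whether replicates were separate plants or pools, and p-values measure the spread between these arrays.

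**Figure D1:**
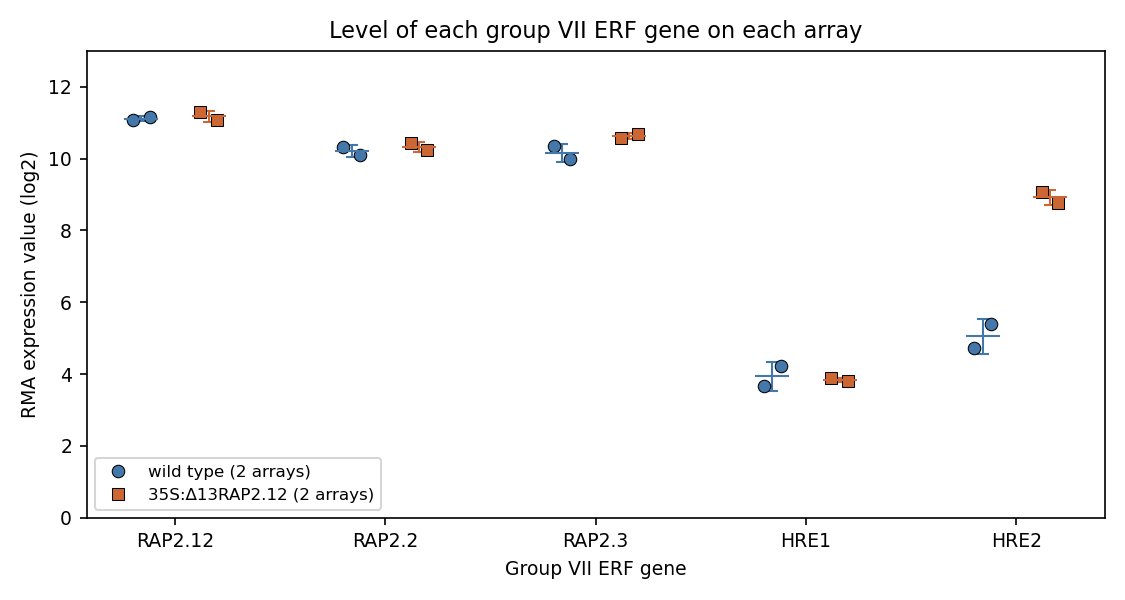
RMA expression value in log2 units (vertical axis) of the 5 group VII ERF genes on each of 4 arrays, circles for wild type and squares for 35S:∆13RAP2.12. Wide ticks are group means and bars are SDs of 2 arrays. HRE2 lies at 4.71 and 5.39 on the wild-type arrays and at 9.07 and 8.76 on the others, and heights are not comparable between genes because each has its own probes.

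RAP2.12 is the member named in the transgene. Its probe set read 11.07 and 11.16 in the wild type and 11.28 and 11.06 in the transgene-labelled arrays. The transgene-labelled values lay on both sides of the wild-type pair, so the groups overlapped. The ratio of the group means was 1.04, with a 95% interval of 0.813 to 1.33 (limma adjusted p = 0.879). A difference of 0.99 log2 units, or 1.99-fold, was the smallest that would have passed at this gene's error, and the upper end of the interval lies below it. No rise of RAP2.12 RNA that would bear out the label was called, but this probe set cannot check the label in either direction. Whether its probes lie in a part of the transcript that the transgene shares is not known here. Every direction is that of the transgene-labelled arrays.

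RAP2.2 is the closest relative of RAP2.12 and acts beside it in the response to low oxygen. It read 10.32 and 10.09 in the wild type and 10.43 and 10.23 in the transgene-labelled arrays. These pairs overlapped, and replicates of 1 group were 0.24 (wild type) and 0.19 (35S:∆13RAP2.12) apart, against a group difference of 0.12 (SE 0.15). The ratio was 1.09, with a 95% interval of 0.828 to 1.43 (limma adjusted p = 0.747).

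RAP2.3 was first described as a protein that binds ethylene-responsive promoter elements. Its levels were 10.34 and 9.98 in the wild type and 10.56 and 10.70 in the transgene-labelled arrays. Both transgene-labelled arrays lay above both wild-type arrays, by at least 0.22, but the wild-type arrays were 0.36 apart. The difference of 0.47 (SE 0.17, 1.39-fold, 95% interval 1.02 to 1.89) did not pass over all probe sets (limma adjusted p = 0.288). Of the 5 members, 2 had groups that did not overlap with the transgene-labelled arrays higher, RAP2.3 and HRE2, where 19.5% of all probe sets did. No member had groups that did not overlap in the other direction (29.1% of all probe sets), and 48.6% of all probe sets were without overlap in either direction. A RAP2.3 difference of 1.24 log2 units would have been needed for a call.

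HRE1 and HRE2 are the hypoxia-induced pair of the family. HRE2 rose, and HRE1 did not pass. HRE2 read 4.71 and 5.39 in the wild type and 9.07 and 8.76 in the transgene-labelled arrays. The groups were widely separated: the closest pair of arrays from different groups differed by 3.38, or 10.4-fold, and the farthest by 4.36, or 20.5-fold. The fitted difference of 3.87 had an SE of 0.27 and corresponds to 14.6-fold (95% interval 8.92 to 23.9, limma adjusted p = 0.00996). By size of increase HRE2 ranked at place 67 among all probe sets. The wild-type gap of 0.67 between replicates was wider than that of 94.0% of probe sets. Without wild type replicate 1 the difference was 3.53, and without wild type replicate 2 it was 4.21. HRE2 did not pass in either fit, where 1 array stood for the wild type and calls over all probe sets also fell.

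HRE1 read 3.66 and 4.22 in the wild type and 3.88 and 3.80 in the transgene-labelled arrays. Both transgene-labelled values fell between the wild-type values. The ratio was 0.932, with a 95% interval of 0.623 to 1.39 (limma adjusted p = 0.867). The upper end of this interval stands for a 1.39-fold increase. The smallest difference that would have passed was 1.61, or 3.05-fold. All 4 HRE1 values lay below 4.82, the lower quartile of mean level over probe sets, as did the wild-type HRE2 value of 4.71. Signal over background is unknown for these probe sets, so a change of HRE1 at levels too low for its probes would not be seen. The 95% interval of HRE2, 3.16 to 4.58 in log2 units, does not overlap that of HRE1, -0.68 to 0.48. The difference between these genes was not itself tested.

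**Figure D2:**
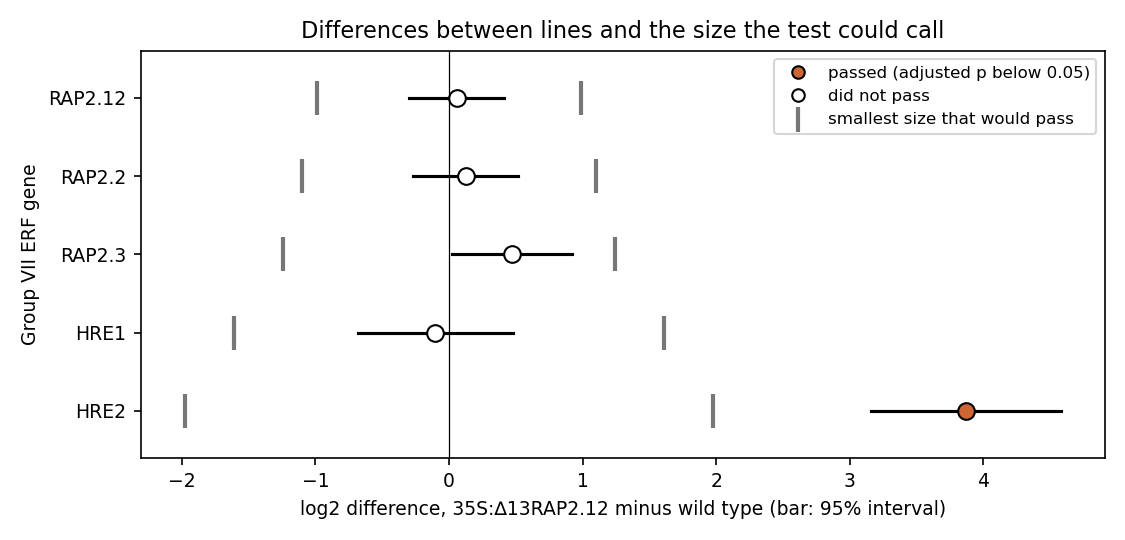
Log2 difference, 35S:∆13RAP2.12 minus wild type (horizontal axis), of each group VII ERF gene, with bars for the 95% interval and grey ticks for the smallest size that would pass at an adjusted p of 0.05. HRE2 at 3.87 lies beyond its tick at 1.98, and the intervals of RAP2.12, RAP2.2, RAP2.3 and HRE1 end inside theirs.

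No gene beside a member on its chromosome passed the test. The gene order of the reference table gave 10 nearest measured neighbours, 9 of them directly adjacent. Of the 10, 0 passed (limma), which is near the 2.17% of all probe sets called. At an unadjusted p below 0.05 there was 1, beside 4517 of all 27826 probe sets. Differences of the 10 neighbours ran from -0.21 to 0.56. HRE2 lies between FUM1, which encodes a fumarase, at 0.04 (SE 0.11) and AT2G47530 at 0.03 (SE 0.21). The neighbour at 0.56, AT1G53887 (adjusted p = 0.128), was 4 genes from RAP2.12 and was the nearest one measured on that side.

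Few probe sets lay near HRE2 over the 4 arrays. After each profile was centred on its own mean, 1 probe set lay within a root mean square distance of 0.1 log2 units of HRE2, WRKY75 at 0.0988. WRKY75 encodes a transcription factor of the WRKY family and read 4.59 and 5.02 in the wild type and 8.70 and 8.48 in the transgene-labelled arrays. The next were HSP17.6II, a small heat shock gene, at a distance of 0.111 and AT4G33560, one of the hypoxia target genes listed below, at 0.121. All 3 had the higher wild-type value on replicate 2 and the higher value of the other group on replicate 1, as HRE2 did. They were chosen for likeness to HRE2 over these same arrays, so the shared order is no separate result. For the 4 members that were not called, more probe sets lay this near: 3298 lay within 0.1 of RAP2.12, 2278 of RAP2.2, 777 of HRE1 and 288 of RAP2.3. The nearest to these were AT5G11870, PDE345 and CRK3 for RAP2.12, AT5G58880, AT2G28085 and AT1G48640 for RAP2.2, AT5G01970, AT1G16760 and AT1G49250 for RAP2.3, and AT3G25160, AT3G28790 and NRPB10 for HRE1. The distances describe 4 arrays and carry no test. Profiles were not scaled, and the 5th to 95th percentile of differences over all probe sets ran from -0.56 to 0.67. The counts of near probe sets therefore largely follow the size of each member's difference, and are no separate result about HRE2.

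Of the genes that act on ERF-VII proteins, PCO1, PCO2 and HRA1 rose, and 16 of 19 did not pass. The list of 19 regulators holds the cysteine oxidases, methionine aminopeptidases, arginyltransferases and ligases of the breakdown route, membrane anchors, a kinase, a Mediator subunit and the repressor HRA1. In it 3 genes (15.8%, beside 1.74% of all probe sets) were higher and 0 lower (limma). The list was written with earlier results of these data known, so this share is no independent test. At an unadjusted p below 0.05, 5 were higher and 0 lower, beside 2185 and 2332 of all 27826 probe sets. The median difference of the 19 genes was 0.02. The oxidase PCO2 read 7.22 and 6.46 in the wild type and 11.85 and 11.86 in the transgene-labelled arrays, a difference of 5.02 (SE 0.27, limma adjusted p = 0.00614). PCO1 rose by 3.24 (SE 0.19). HRA1, a trihelix protein that binds RAP2.12 and dampens its activity, read 8.17 and 8.06 against 11.14 and 11.05, an increase of 2.98 (SE 0.12, limma adjusted p = 0.00349). All 3 are also on the list of hypoxia target genes below. Fewer regulators passed when either wild-type array was left out, as was so over all probe sets. PRT6, the ligase of the route, differed by 0.02, the arginyltransferases ATE1 and ATE2 by 0.04 and -0.31, and the anchors ACBP1 and ACBP2 by -0.12 and 0.26, none of which passed.

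The remaining oxidases did not pass. PCO3 differed by -0.15, PCO4 by -0.30 and PCO5 by 0.53 (SE 0.11, limma adjusted p = 0.119). Both transgene-labelled arrays of PCO5, at 10.21 and 10.20, lay above the wild type at 9.69 and 9.66. Those of PCO4, at 8.73 and 9.05, lay below the wild type at 9.24 and 9.14. Over all probe sets, 19.5% were without overlap in the upward direction and 29.1% in the downward direction. Outside the family, VRN2, a Polycomb protein, and ZPR2, a little zipper protein, are known to start with methionine and cysteine and to be broken down by the same route. VRN2 RNA differed by -0.11 (SE 0.13, limma adjusted p = 0.748) and ZPR2 RNA by 0.40 (SE 0.15, limma adjusted p = 0.313). Neither passed, also at an unadjusted p below 0.05 (0 of 2).

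A list of 26 hypoxia target genes, induced by low oxygen or regulated by group VII ERFs, leaves out HRE1 and HRE2. On it 23 were higher (88.5%, beside 1.74% of all probe sets) and 0 lower (limma). At an unadjusted p below 0.05, 25 were higher and 0 lower, beside 2185 and 2332 of all 27826 probe sets. The median difference of the 26 was 3.24. HRE2 at 3.87 lay within the range of the 26 genes, 0.15 to 7.20, and HRE1 at -0.10 lay below all 26. The list was written with earlier results of these data known and admits targets of group VII ERFs. Its high share is therefore no independent test, and 3 of its genes are also on the regulator list. The largest differences were those of AT5G10040 at 7.20, CML38, a calmodulin-like protein, at 7.02, AT4G39675 at 6.27 and AT1G33055 at 5.69. The 3 that did not pass, named after their values were seen, were ACO1 at 1.43, AT1G19530 at 0.75 and AT3G10020 at 0.15. Fewer of the 26 passed when either wild-type array was left out, and calls over all probe sets fell as well.

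**Figure D3:**
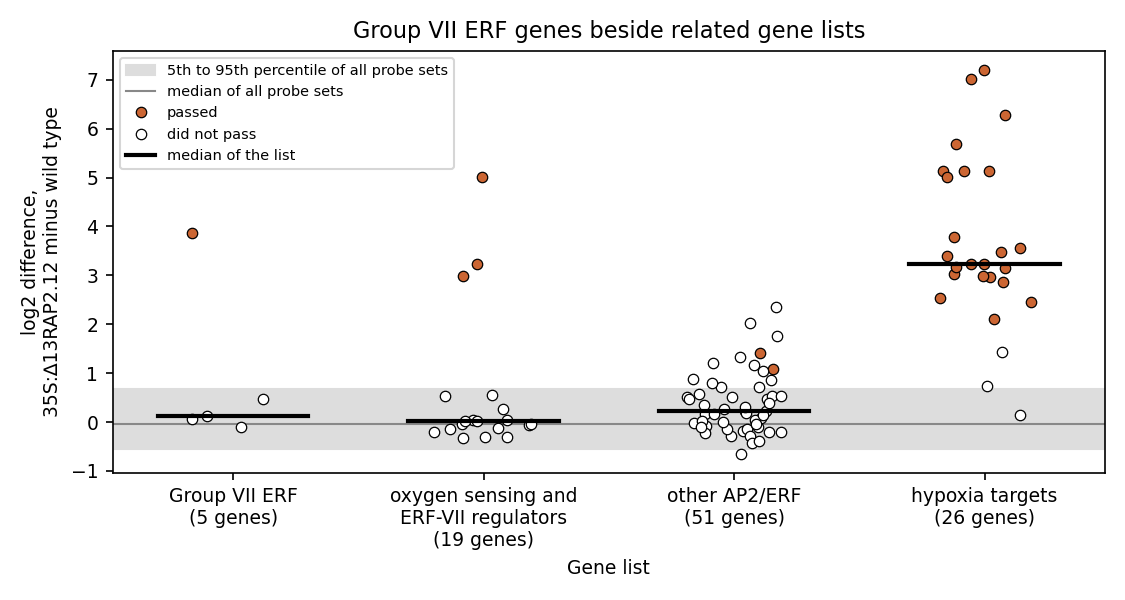
Log2 difference, 35S:∆13RAP2.12 minus wild type (vertical axis), of single genes in 4 lists, filled where they passed. Black lines are list medians and the grey band runs from the 5th to the 95th percentile of all probe sets, -0.56 to 0.67. HRE2 stands at 3.87 among hypoxia targets with a median of 3.24, while the 4 other group VII ERF genes lie inside the band.

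Fitted differences of the other AP2/ERF genes examined were smaller than that of HRE2. The reference table named 51 such genes outside group VII, which are only part of that large family. Of these 2 (3.92%, beside 1.74% of all probe sets) were higher and 0 lower (limma). At an unadjusted p below 0.05, 15 were higher and 3 lower, beside 2185 and 2332 of all 27826 probe sets. The median difference of the 51 genes was 0.22. DREB2C, of the dehydration-responsive element binding proteins, read 9.01 and 9.01 in the wild type and 10.51 and 10.35 in the transgene-labelled arrays, a difference of 1.41 (SE 0.12, limma adjusted p = 0.0169). ERF10 rose by 1.08 (SE 0.13, limma adjusted p = 0.0404). The range over the 51 genes was -0.65 to 2.34, below the lower end of the HRE2 interval at 3.16. The count fell when any 1 array was left out, as did the count over all probe sets. Called genes on this list numbered 5 when dim probe sets were left out and 9 when the prior variance followed the level. Calls over all probe sets also rose in these 2 fits, to 902 and 1759.

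Leaf markers were high on every array, and no tissue marker passed the test. Median levels of the 4 arrays lay between 7.88 and 7.91. The 5 leaf markers ranged from 11.70 to 13.09 and their summed log2 level from 62.0 to 62.2 in the wild type and 61.7 to 61.8 in the transgene-labelled arrays. Root markers summed to 18.7 to 19.8 and 18.3 to 19.4, and seed markers to 9.6 to 9.7 and 9.5 to 9.8. The 3 flower markers summed to 13.5 to 14.9 and 12.2 to 12.5, with AG, a floral organ identity gene, at a difference of -1.10 (limma adjusted p = 0.0690). AP3 differed by -0.26 and PI by -0.43. Mean levels of 2 of the 3 flower, 3 of the 4 root and 1 of the 2 seed markers lay below 4.82, the lower quartile over probe sets. None of the 14 markers passed (limma), beside 2.17% of all probe sets. At an unadjusted p below 0.05 there was 1 marker, beside 4517 of all 27826 probe sets. The part of these flower marker values in the HRE2 result was not tested.

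The values of the 4 members that were not called depended on single arrays more than on processing. With all arrays kept, the alternatives moved RAP2.12 between 0.03 and 0.10, RAP2.2 between 0.10 and 0.15, RAP2.3 between 0.45 and 0.50 and HRE1 between -0.13 and -0.10. Without wild type replicate 2, HRE1 differed by 0.18 in place of -0.10, and without transgene-labelled replicate 1, RAP2.12 differed by -0.053 in place of 0.06. RAP2.3 had its lowest adjusted p, 0.0701, when the prior variance followed the level, within a range up to 0.327 over the alternatives that kept all arrays.

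**Figure D4:**
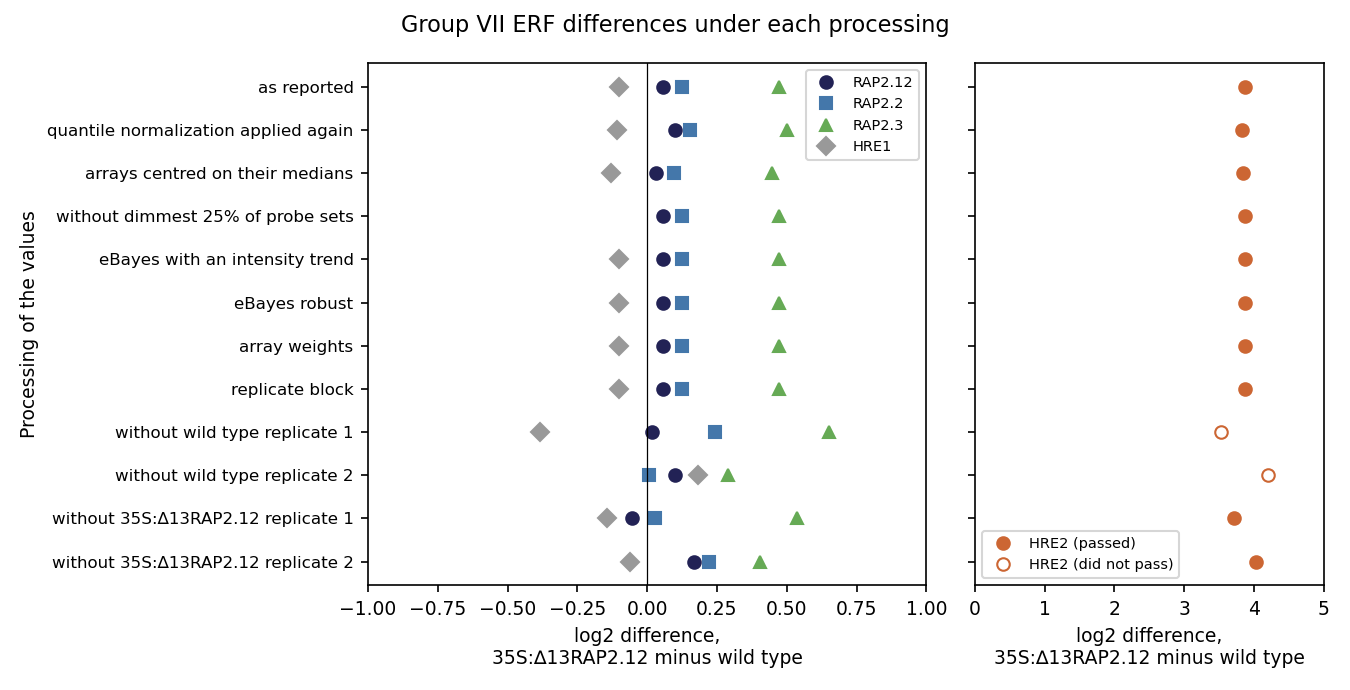
Log2 difference, 35S:∆13RAP2.12 minus wild type (horizontal axes), of RAP2.12, RAP2.2, RAP2.3 and HRE1 (left) and HRE2 (right) under each processing (rows). HRE2 stayed between 3.53 and 4.21, with open circles where it did not pass, which were the fits without 1 wild-type array.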

How the data were processed

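RNA from 4 samples was read on Affymetrix Arabidopsis arrays, per the labels' protocols. The authors deposited log2 values. RMA is named in the submitters' processing notes, and the log2 scale follows from the spread of the values. RMA subtracts background, makes the arrays' distributions alike and condenses each probe set to 1 value. No source used here states the software version, probe set definition or genome build, and no coordinates are printed. All 4 value columns were used (0 left aside), with no further filter. The number of arrays limits the precision. The design text of the series names more samples in each group than the 2 arrays per group given here, and those further samples were not analysed.

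Groups and replicate numbers came from sample titles. Differences were fitted with limma 3.58.1 in R 4.3.3 (lmFit, eBayes, 2 residual and 2.55 prior degrees of freedom), with Benjamini-Hochberg adjustment over 27826 probe sets. The smallest difference that would pass is the moderated SE times the t value at the largest called p, 0.00108. The fit was checked on simulated data. Members and lists were chosen with earlier results of these data known. Named genes were the members, both other Met-Cys proteins, the nearest neighbours, the 3 nearest profiles per member and up to 4 called genes per list and direction with the largest change; others are given beside them as list values, chosen after their values were seen. Symbols and gene order came from the reference table of assembly TAIR10.1, which held 27241 of the loci. Alternatives were a replicate block, repeated quantile normalization, median centring, a low-signal filter at the 25th percentile, trend or robust eBayes, array weights, each array left out, and adjusted p thresholds of 0.01 and 0.10. AP2 genes were found by name, and 7 names that only resemble the family were left out. Figures used matplotlib 3.10.9 in Python 3.11.15.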

Additional observations from a re-analysis of the deposited data

How the results depend on the processing

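Of 119 comparisons of a result with an alternative, 93 kept their direction and side of the threshold, or a count within 1.5 times. HRE2 passed in all 7 alternatives with every array kept (3.82 to 3.87, adjusted p 8.29e-05 to 0.0154), including the replicate block (3.87, adjusted p = 0.0154). Nothing says that shared replicate numbers mark a shared tray or day, so the numbers were not taken as pairs. Same-numbered arrays deviated with a correlation of 0.0349, and the replicate block changed no call of a member. Its count of called probe sets was 515, against 603. With 1 array left out, HRE2 ranged from 3.53 to 4.21, RAP2.12 from -0.053 to 0.17, RAP2.2 from 0.0047 to 0.24, RAP2.3 from 0.29 to 0.65 and HRE1 from -0.38 to 0.18. In these fits the lone array is assumed to vary like the others. Called members numbered 0 to 1, probe sets 0 to 315, regulators 0 to 3, hypoxia targets 0 to 20 and other AP2/ERF genes 0 to 1, with 2 against 1 arrays in each fit. In place of 603 called probe sets, an intensity trend gave 1759, a threshold of 0.01 gave 160 and a threshold of 0.10 gave 1203. The trend gave 5 regulators in place of 3 and 9 other AP2/ERF genes in place of 2, and the low-signal filter gave 5 of the latter. Thresholds of 0.01 and 0.10 gave 0 and 7 other AP2/ERF genes. The cause was not tested for the trend and the filter. HRE1 has no value under the low-signal filter, which removed it. Without detection calls, signal over background limits what HRE1 and wild-type HRE2 can show.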

Other observations

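A pair of other AP2/ERF genes, named after their values were seen, had the largest differences on that list without passing. Rap2.6L read 6.05 and 6.72 in the wild type and 9.10 and 8.36 in the transgene-labelled arrays, a difference of 2.34 (SE 0.35, limma adjusted p = 0.0610). RAP2.6 read 5.55 and 5.45 against 8.26 and 6.80, a difference of 2.03 (SE 0.50, limma adjusted p = 0.162). The groups did not overlap for either gene, with the transgene-labelled arrays higher, as for 19.5% of all probe sets. The transgene-labelled arrays of RAP2.6 lay far apart.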
